A study of Rattus norvegicus with 6 samples.

Results

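The IL-6 family genes studied here are 10 genes of the deposited table, taken by gene symbol: the cytokines Il6, Il11 and Lif, the receptor chains Il6st, Il6r, Il11ra1, Lifr and Osmr, and the signaling genes Stat3 and Socs3. They are 10 of 18420 genes in the table, and all 10 were among the 13250 genes that passed the filter on low counts. RNA-seq was made from primary chondrocytes of wild-type male Sprague-Dawley rats, taken from knee and hip cartilage and used at the third passage. The 3 libraries of the TNF-α group came from cells kept for 6 h in TNF-α at 10 ng/mL. The 3 libraries of the TNF-α+NFL group came from cells given the same 6 h of TNF-α followed by 24 h of NFL, the cleared freeze-thaw lysate of Nanofat, a cell preparation from rat abdominal fat. Both groups therefore had TNF-α, and no library without it was analysed here. By the labels, cells without NFL were harvested at 6 h and cells with NFL at 30 h, and NFL and the time of harvest therefore cannot be told apart. The study describes the libraries of a group as biological replicates, made from cells of the same passage, and which animals went into which library is not given in the sources used here. The p-values measure the spread between these libraries.

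IL-6 family cytokines share a signaling chain, gp130, which is encoded by Il6st. The chains used beside gp130 differ between the cytokines. IL-6 binds the receptor encoded by Il6r, IL-11 that encoded by Il11ra1 and LIF that encoded by Lifr. Oncostatin M pairs gp130 with the chain encoded by Osmr. The complexes activate Janus kinases, which phosphorylate STAT3, and STAT3 in turn induces Socs3, whose protein binds gp130 and shuts the signal off. In joints, IL-6 is a cytokine of inflamed cartilage and synovium, and its gene is induced by TNF-α through NF-κB.

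The promoter of Il6 is shown first, since of the members' promoters it held the most motif matches, and that of Il11 is set beside it because the RNA of the pair differed most in level among the cytokines. Both sequences are RefSeq sequences of the GRCr8 build, from 250 bases before to 50 bases after the annotated start, read 5′ to 3′ along the gene. Il6 lies at chr4:5894526-5894825 on the minus strand and Il11 at chr1:78098372-78098671 on the plus strand. Capitals mark the matches to the motifs searched on both strands.
Il6: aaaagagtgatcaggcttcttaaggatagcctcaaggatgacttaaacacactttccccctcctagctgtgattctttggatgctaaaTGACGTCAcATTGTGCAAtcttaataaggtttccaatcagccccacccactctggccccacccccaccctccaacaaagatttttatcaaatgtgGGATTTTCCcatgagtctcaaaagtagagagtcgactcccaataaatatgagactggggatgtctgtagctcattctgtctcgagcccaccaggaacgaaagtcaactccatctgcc
Il11: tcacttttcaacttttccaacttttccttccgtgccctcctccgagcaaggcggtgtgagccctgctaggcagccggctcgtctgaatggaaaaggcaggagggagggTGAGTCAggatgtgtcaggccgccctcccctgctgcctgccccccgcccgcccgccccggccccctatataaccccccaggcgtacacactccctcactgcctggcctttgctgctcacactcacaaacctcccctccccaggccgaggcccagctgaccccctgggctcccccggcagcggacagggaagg

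In the Il6 sequence, the capitals are a cAMP response element (TGACGTCA) whose first base is at -162 from the start, a C/EBP type match (TTGCNNAAT, here on the opposite strand) at -153, and an NF-κB type match (GGANTTTCC) at -67. In the Il11 sequence they are a single AP-1 type match (TGANTCA), at -142. The NF-κB type letters were found in 1.26% of 27457 rat promoters of this length, the cAMP response element in 1.91%, the C/EBP type letters in 2.63% and the AP-1 type letters in 7.33%. Of the 8 members with a promoter in the table, only Il6 held the first 3 of these motifs, and Il11 and Osmr held the AP-1 type motif. A STAT type motif (TTCNNNGAA, in 8.68% of all promoters) was found in 0 of the 8. The promoters of Lif and Il11ra1 were not used here. A match describes letters, not a bound site.

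The libraries held between 19344893 and 19725135 estimated counts. TNF-α replicates 1 and 3 stood at opposite ends of the first principal component, which held 26.1% of the variance, and the TNF-α+NFL libraries lay between them. Of the 8 macrophage markers in the table, 5 had more counts in TNF-α replicate 1 than in any other library (Csf1r, Lyz2, Tyrobp, Ptprc and Itgam), all at few counts: Tyrobp was at 11 counts there and at 0 in each other library, Lyz2 at 14.95 and 0, and Csf1r at 40 against 1 to 7. The most abundant markers differed little there from the next library: Cd14 was at 68.63 TPM in TNF-α replicate 1 and at most 68.2 TPM in the others, and Cd68 at 43.35 and at most 42.86 TPM. By estimated counts neither was highest there, and C1qb was at 0 in each library. For 5 of the 10 members (Il6st, Lifr, Osmr, Socs3 and Stat3), TNF-α replicate 1 had the highest normalized count of the 6 libraries, whereas it was the highest for 21.3% of all tested genes.

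The level of each gene was compared with that of the others in TPM, which is scaled to transcript length. In both groups Il6st was the most abundant member, at 308 ± 25.6 TPM without NFL and 306 ± 4.93 TPM with NFL (SD, n = 3 each), and only 3.93% of the tested genes had a higher mean. Stat3 followed, at 127 ± 8.01 and 131 ± 2.80 TPM (SD, n = 3 each). Below them came Osmr at 74.1 ± 8.23 and 74.2 ± 2.66 TPM and Il6 at 70.3 ± 8.06 and 75.1 ± 0.690 TPM (SD, n = 3 each), whose ranges overlapped in both groups. The shared chain, the transcription factor, the oncostatin M chain and Il6 itself were thus the 4 most abundant members in both groups.

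Il11ra1 was at 55.3 ± 0.162 TPM without NFL and 52.8 ± 0.866 TPM with NFL (SD, n = 3 each). Socs3 was at 54.4 ± 7.40 and 45.1 ± 3.85 TPM, and Lif at 44.4 ± 2.07 and 49.0 ± 5.14 TPM (SD, n = 3 each). These 3 genes formed a middle tier, in which Socs3 overlapped its upper neighbour Il11ra1 in the TNF-α group and lay just above Lif (lowest Socs3 46.08 TPM, highest Lif 45.67 TPM), and Lif overlapped both Il11ra1 and Socs3 in the TNF-α+NFL group. Lifr was lower, at 8.04 ± 2.73 and 8.74 ± 0.720 TPM (SD, n = 3 each), of which TNF-α replicate 1 was at 11.19 TPM and the other TNF-α libraries at 6.34 and 6.59 TPM. Il6r was lower still, at 3.42 ± 0.17 and 3.32 ± 0.333 TPM (SD, n = 3 each). Il11 was the least abundant member, at 0.757 ± 0.0503 and 0.713 ± 0.0961 TPM (SD, n = 3 each), and 94.9% of the tested genes had a higher mean. The ranges of Lifr, Il6r and Il11 did not overlap each other or those of the genes above them in either group.

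The receptor chains were therefore far from equal in RNA. The TPM of Il6st was between 80.1 and 102 times that of Il6r in the 6 libraries, between 30.1 and 46.8 times that of Lifr, between 5.23 and 6.09 times that of Il11ra1 and between 4.03 and 4.28 times that of Osmr. The ratio of Il6st to Il6r was 90.3 ± 10.6 without NFL and 92.9 ± 10.3 with NFL (SD, n = 3 each), and these ranges overlapped (exact permutation test, two-sided, p = 0.70). The receptor chain of IL-11 exceeded that of IL-6, with a ratio of Il11ra1 to Il6r between 14.5 and 17.5. Among the cytokines the order was the other way round: the TPM of Il6 was between 86.9 and 124 times that of Il11, and between 1.37 and 1.75 times that of Lif.

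**Figure D1:**
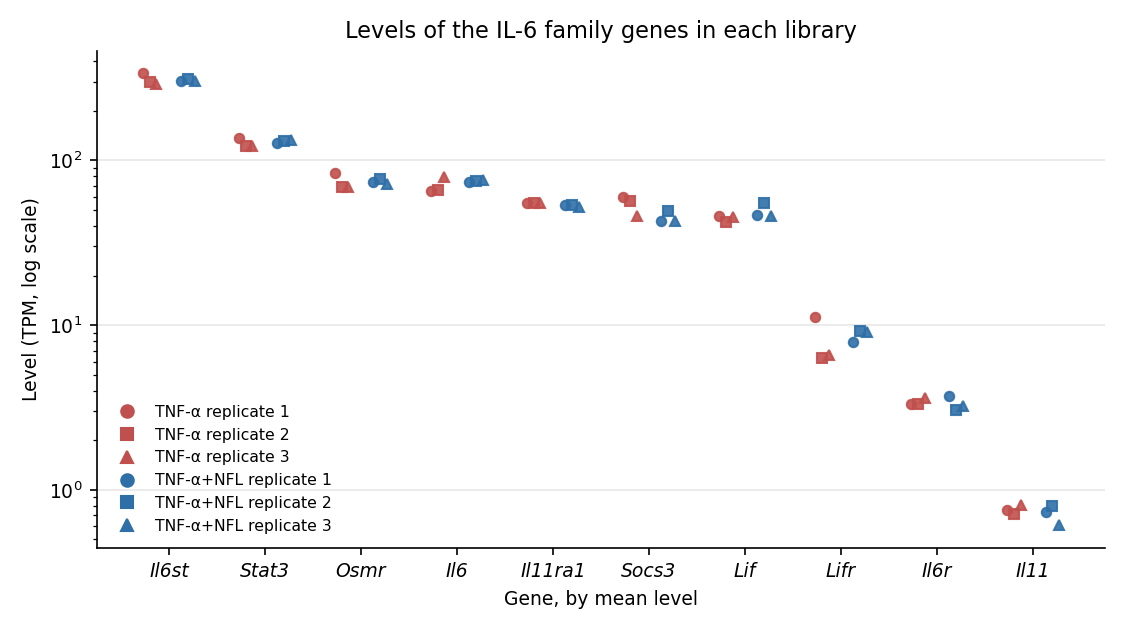
Level in TPM (log scale) of the 10 IL-6 family genes in each of the 6 libraries, with genes ordered by their mean. Il6st was at about 300 TPM and Il11 below 1 TPM in every library, and the colours of the groups lie on each other for most genes.

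The comparison of the TNF-α+NFL group with the TNF-α group asked whether the RNA of these genes differed after NFL. With the quasi-likelihood test of edgeR and a threshold of 0.05 on the adjusted p, 0 of the 10 members were higher and 0 were lower, where 0.611% of all tested genes (81 of 13250) were called. DESeq2's Wald test called 0 of the 7 members for which it gave an adjusted p. Without adjustment, edgeR's p was under 0.05 for 2 of the 10, Socs3 and Il11ra1, beside 11.1% of all tested genes, and DESeq2's for 1, Socs3, beside 5.93% of all tested genes. By normalized count, the groups did not overlap for the same 2 members, where 16.8% of all tested genes had no overlap. The median log2 fold change of the members was -0.023, against -0.0035 for all tested genes, with 4 members above 0 and 6 below. A count of 2 in 10 is close to either background, and the differences were small.

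Among the cytokines, Il6 was at a normalized count (CPM) of 33.5, 35.1 and 42.6 in TNF-α replicates 1, 2 and 3, and of 38.3, 38.6 and 39.1 in TNF-α+NFL replicates 1, 2 and 3. The TNF-α+NFL libraries were almost equal and lay inside the range of the TNF-α libraries, of which replicate 3 was the highest of all 6. The means were 37.1 ± 4.88 CPM (SD, n = 3) and 38.7 ± 0.387 CPM (SD, n = 3), which differ by 0.061 on the log2 scale (SE of 0.079, edgeR adjusted p = 0.85). The 95% confidence interval of the fold ran from 0.924 to 1.18, and the exact permutation test (two-sided) gave p = 0.70. Il6 had 640 to 843 counts a library, and the interval leaves out a change of 1.5-fold. The log2 fold change was -0.0059 when TNF-α replicate 1 was left out and 0.18 when TNF-α replicate 3 was (edgeR adjusted p = 0.98 and 0.30).

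Lif, which encodes leukemia inhibitory factor, was at a CPM of 36.7, 36.03 and 38.8 in the TNF-α libraries and of 38.4, 42.3 and 36.3 in the TNF-α+NFL libraries. TNF-α+NFL replicate 2 stood above the others, which overlapped. The log2 fold change was 0.069 (SE of 0.062, edgeR adjusted p = 0.76), with a fold between 0.956 and 1.15 (95% confidence interval). The counts of Lif were fractional in 4 of the 6 libraries (700.99, 712.01, 766.99 and 751.99), each close to a whole number. Some of its reads may be shared with another gene in the estimate.

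Il11 was at few counts, with 12, 12 and 14 in the TNF-α libraries and 12, 13 and 10 in the TNF-α+NFL libraries. The counts overlapped, and the log2 fold change of -0.12 (SE of 0.30, edgeR adjusted p = 0.94) had an interval of the fold from 0.588 to 1.44 (95%). The interval is wide at this depth, and the size of a difference that could be detected for Il11 was not tested.

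**Figure D2:**
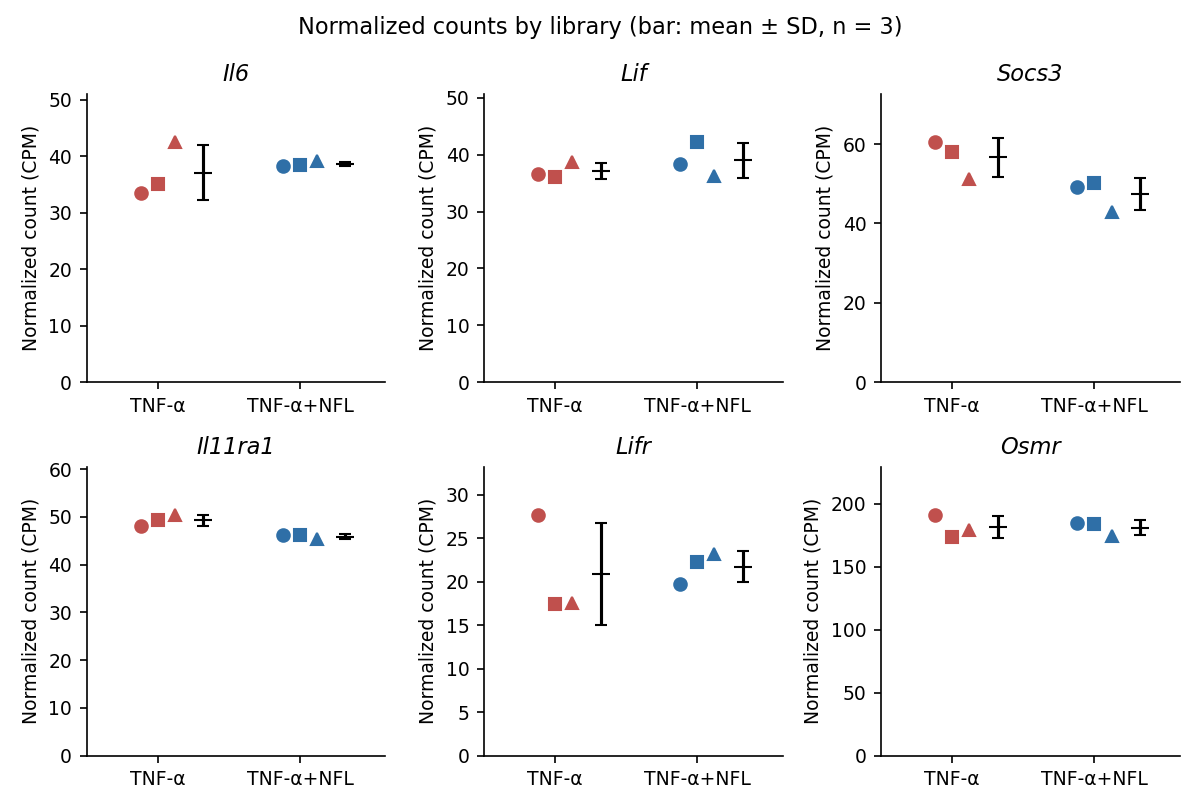
Normalized count (CPM, linear axis from 0) of 6 members in each library, with replicates 1, 2 and 3 drawn as circle, square and triangle from left to right, and the mean ± SD (n = 3) beside them. The groups are apart for Socs3 and Il11ra1, overlap for Il6, Lif and Osmr, and TNF-α replicate 1 stands alone for Lifr at 27.6 CPM.

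Of the receptor chains, Il11ra1 was the only one whose groups did not overlap. Its CPM was 48.1, 49.3 and 50.4 in the TNF-α libraries and 46.2, 46.1 and 45.3 in the TNF-α+NFL libraries, so each TNF-α+NFL library lay below each TNF-α library. The log2 fold change was -0.10 (SE of 0.046, p = 0.043 and edgeR adjusted p = 0.43), and the exact permutation p of 0.10 (two-sided) is the smallest that 3 libraries against 3 allow. Its adjusted p was between 0.13 and 0.80 over 13 alternatives. The difference did not pass the threshold on the adjusted p in any of them.

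Lifr, the chain for LIF, had the highest replicate variation of the members. Its CPM was 27.6, 17.4 and 17.6 in TNF-α replicates 1, 2 and 3 and 19.7, 22.3 and 23.1 in the TNF-α+NFL replicates. TNF-α replicate 1 was above every other library, and the remaining TNF-α libraries were below every TNF-α+NFL library. The biological coefficient of variation of Lifr was 17.8%, where genes of its level had 5.83%, and only 1.69% of the tested genes exceeded their own trend by more. With all libraries the log2 fold change was 0.058 (SE of 0.22, edgeR adjusted p = 0.96).

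Without TNF-α replicate 1, Lifr was higher in the TNF-α+NFL group, with a log2 fold change of 0.31 (edgeR adjusted p = 0.019), and was the only member called, where 6.94% of all tested genes were called without that library. Without TNF-α replicate 2 or 3 its log2 fold change was -0.054 or -0.049. The call and the size for Lifr thus changed with TNF-α replicate 1, and the direction with TNF-α replicates 2 and 3. The macrophage markers in TNF-α replicate 1 are given above, and their part in the Lifr value was not tested. The counts of Lifr were fractional in 3 of the 6 libraries (528.01, 348.01 and 386.03), each close to a whole number.

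The other receptor chains were close between the groups. Il6st had a mean CPM of 1207 ± 76.0 without NFL and 1171 ± 13.9 with NFL (SD, n = 3 each), with a fold between 0.908 and 1.04 (95% confidence interval, edgeR adjusted p = 0.79). Its 1294 CPM in TNF-α replicate 1 was above the 1155 to 1186 CPM of the other 5 libraries, and without that library the log2 fold change turned from -0.044 to 0.010. Osmr was at 182 ± 8.70 and 181 ± 5.83 CPM (SD, n = 3 each), with a fold between 0.934 and 1.07. Its log2 fold change of -0.0025 was 0.036 without TNF-α replicate 1. Il6r was at 8.11 ± 0.505 and 7.69 ± 0.655 CPM (SD, n = 3 each), with a fold between 0.814 and 1.10. Each of these intervals leaves out a change of 1.5-fold.

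**Figure D3:**
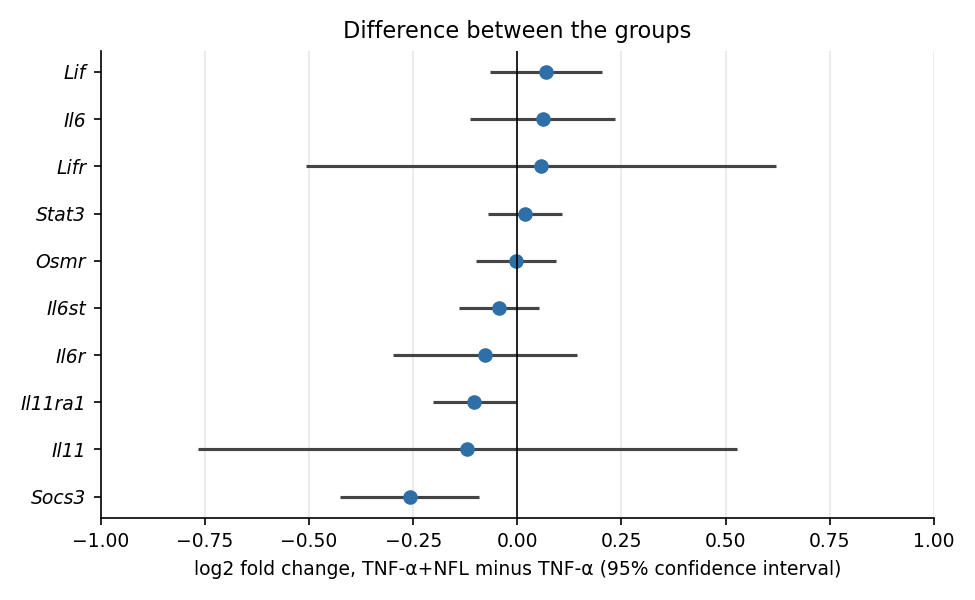
Log2 fold change of each member (TNF-α+NFL minus TNF-α, point) with its 95% confidence interval (line) from edgeR's quasi-likelihood fit. The intervals of Socs3 (-0.42 to -0.092) and Il11ra1 (-0.20 to -0.0040) lie below 0 before any adjustment for the number of genes, and those of Il11 and Lifr are the widest.

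Of the signaling genes, Socs3, the feedback inhibitor, had the smallest p of the members. Its CPM was 60.6, 58.1 and 51.2 in TNF-α replicates 1, 2 and 3 and 49.1, 50.1 and 42.8 in the TNF-α+NFL replicates. By CPM every TNF-α+NFL library lay below every TNF-α library, but TNF-α replicate 3 and TNF-α+NFL replicate 2 were close. In TPM the groups overlapped, with TNF-α replicate 3 at 46.08 TPM and TNF-α+NFL replicate 2 at 49.5 TPM. The means were 56.6 ± 4.87 CPM (SD, n = 3) and 47.3 ± 4.0 CPM (SD, n = 3), a fold of 0.836 with a 95% confidence interval from 0.745 to 0.938. The log2 fold change was -0.26 (SE of 0.075, p = 0.0059 and edgeR adjusted p = 0.21), and the exact permutation p was 0.10 (two-sided), the smallest possible. In 13 alternatives the log2 fold change ran from -0.32 to -0.19, and the adjusted p from 0.065 to 0.56, so it was below 0 in each and past the threshold in none. Without TNF-α replicate 1 it was -0.21 (edgeR adjusted p = 0.20). Fits that leave out different libraries share most of their samples.

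Stat3, the transcription factor, was at 290 ± 12.04 CPM without NFL and 294 ± 6.59 CPM with NFL (SD, n = 3 each). Its log2 fold change was 0.019 (SE of 0.041, edgeR adjusted p = 0.92), with a fold between 0.953 and 1.08. The libraries overlapped, and TNF-α replicate 1 was again the highest at 304 CPM. Without it the log2 fold change was 0.054 (edgeR adjusted p = 0.37). The phosphorylated state of the protein is not seen in RNA.

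**Figure D4:**
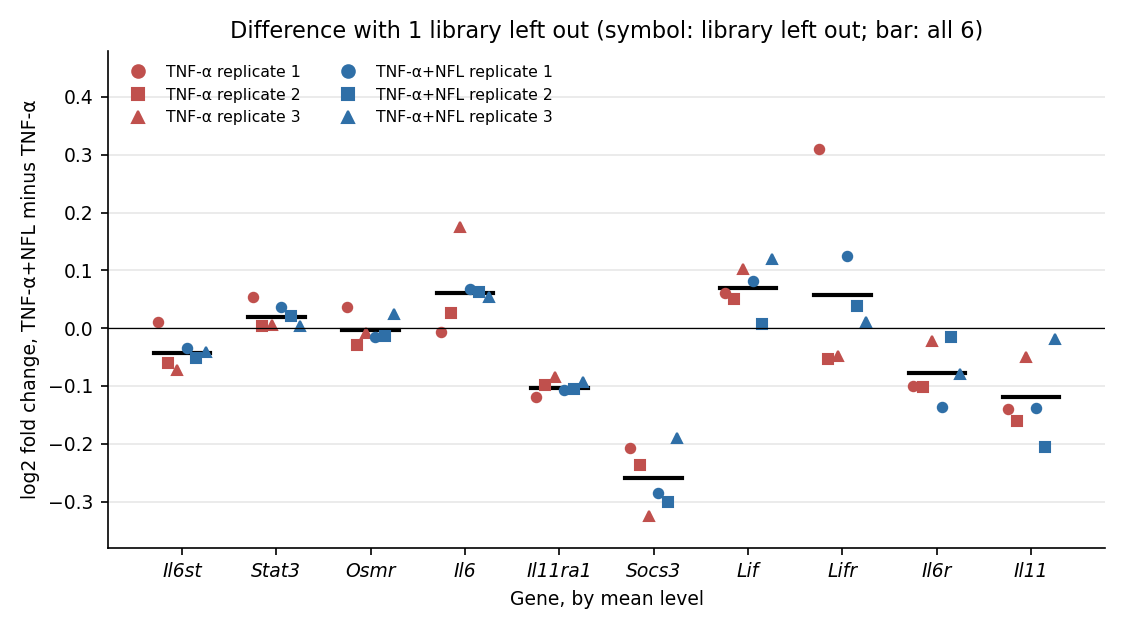
Log2 fold change of each member with all 6 libraries (bar) and with each library left out in turn (symbol and colour of that library). Socs3 and Il11ra1 stay below 0 in all 6 fits, and Lifr moves from 0.058 to 0.31 when TNF-α replicate 1 is left out.

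Other genes of the pathway were followed as 6 lists written from general knowledge, with earlier results of these data known. In each sentence on a list, called means an edgeR adjusted p under 0.05. DESeq2's counts cover only the genes for which it gave an adjusted p. It gave none for Il11, Il6r and Lifr among the members, so list genes at few counts may be left out too. Of the other ligands, 5 of the 9 listed genes were tested and 0 were called, with 1 at a p under 0.05 without adjustment (11.1% of all tested genes) and 0 by DESeq2. Ebi3, a subunit of IL-27 and IL-35, was at 26.13, 30.24 and 22.41 counts in the TNF-α libraries and at 18.18, 17.01 and 11.73 in the TNF-α+NFL libraries, without overlap (log2 fold change -0.73, SE 0.26, edgeR adjusted p = 0.30). Clcf1, the cardiotrophin-like cytokine, had a log2 fold change of 0.063 (edgeR adjusted p = 0.91).

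The ligand and receptor genes that failed the filter were at few counts. Osm, which encodes oncostatin M, the ligand for the abundant Osmr chain, was at 1 to 7 counts a library, and Il31 was at 0 in each. Cntfr, the receptor of ciliary neurotrophic factor, was at 0 to 2 counts, Il27ra at 1.2 to 8 and Il31ra at 1.34 to 9.03, so 0 of the 3 other receptors in the table were tested.

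Of the Janus kinases and other STATs, 9 genes were tested and 0 were called, by DESeq2 too or without adjustment, with a median log2 fold change of -0.0052. Jak1 was the most abundant of this list. Tyk2, a Janus kinase, had a log2 fold change of -0.079 (edgeR adjusted p = 0.67). Stat4 was at 0 counts in each library.

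Of the adaptors, sheddases and negative regulators, 22 genes were tested and 0 were called, by DESeq2 too. Without adjustment 3 were higher and 1 was lower, beside 11.1% of all tested genes in either direction. The median was 0.0071, with 11 genes on each side of 0. Socs1 and Socs2, suppressors of cytokine signaling, had the smallest p. Socs1 was at 25, 30 and 26 counts in the TNF-α libraries and at 21, 12 and 10 in the TNF-α+NFL libraries (log2 fold change -0.91, SE 0.29, edgeR adjusted p = 0.23). Socs2 was at 13.09, 12.62 and 9.41 counts and at 22.88, 24.12 and 19.05 counts, in the same order (log2 fold change 0.90, SE 0.28, edgeR adjusted p = 0.22). Neither gene overlapped between the groups, both were near the limit of the filter, and neither passed the threshold.

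Of the STAT3 target genes, 29 were tested, 1 was called higher (0.408% of all tested genes were) and 0 were called lower, where DESeq2 called 2 lower (Ccnd1 and Timp1, beside 0.4% of all tested genes) and, without adjustment, 2 were higher and 4 lower (11.1% of all tested genes in either direction). The median was -0.044, with 19 genes below 0 and 10 above. The called gene was Tnfrsf11b, which encodes osteoprotegerin, the decoy receptor of RANKL. It was at 151 ± 9.32 CPM without NFL and 185 ± 1.82 CPM with NFL (SD, n = 3 each), which differ by 0.30 on the log2 scale (SE of 0.046, edgeR adjusted p = 0.010). It was past 0.05 in 2 of the 6 fits that left out 1 library, those that dropped TNF-α replicate 1 or 3, but not in those that dropped TNF-α replicate 2 or any of the TNF-α+NFL replicates, and its counts were fractional. Timp1, an inhibitor of matrix metalloproteinases, was at 534 ± 23.2 and 470 ± 2.61 CPM (SD, n = 3 each; log2 fold change -0.18, SE 0.040, edgeR adjusted p = 0.060).

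Of the regulators of Il6 transcription and mRNA decay, 25 were tested and 0 were called, by DESeq2 too. Without adjustment 2 were higher and 3 were lower, beside the same 11.1%, and the median was -0.024. Nfkbia, the NF-κB inhibitor, was the most abundant. The smallest p belonged to Fosl1, an AP-1 subunit, at 48.7 ± 3.58 and 41.1 ± 0.535 CPM (SD, n = 3 each; log2 fold change -0.25, SE 0.057, edgeR adjusted p = 0.080). Next came Rc3h2, a roquin that destabilizes cytokine mRNA (log2 fold change 0.16, edgeR adjusted p = 0.22). Without TNF-α replicate 1, 7 of the 88 tested genes of the pathway lists were called, near the 6.94% of all tested genes: Tnfrsf11b and Ptpn11 higher, and Fosl1, Timp1, Cebpd, Ccnd1 and Ier3 lower.

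**Figure D5:**
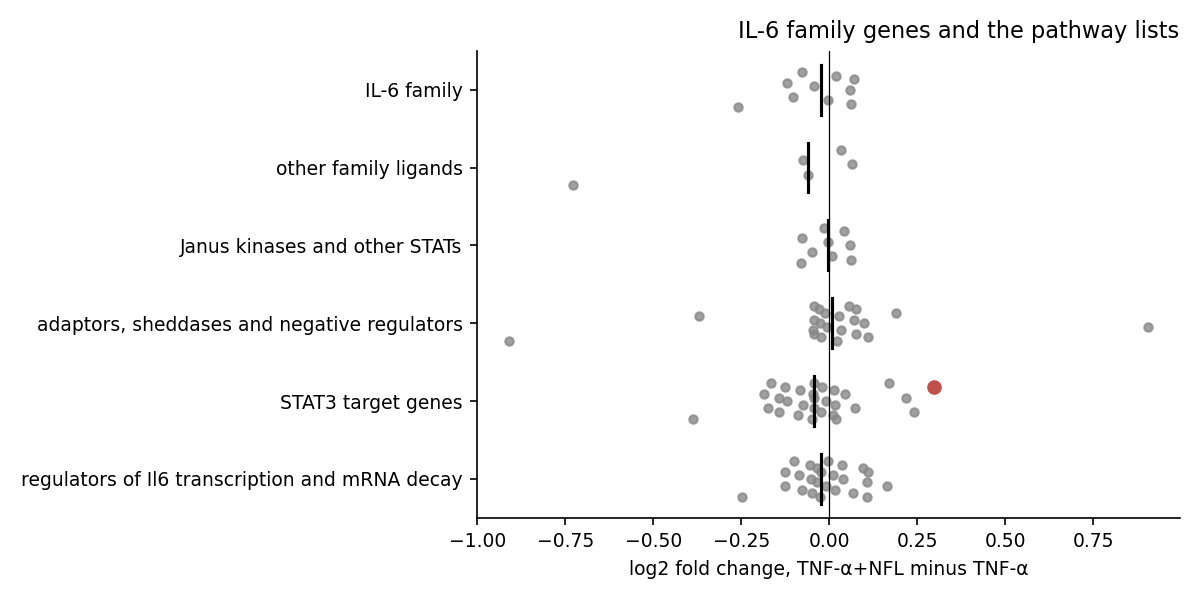
Log2 fold change (TNF-α+NFL minus TNF-α) of every tested gene of the IL-6 family and of the pathway lists, with the median of each list as a vertical bar. Red marks the only gene with an adjusted p under 0.05, Tnfrsf11b at 0.30, and Socs1 and Socs2 lie farthest from 0, at -0.91 and 0.90.

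The label of the cells was checked against marker genes. Of the chondrocyte markers, Col11a1 was at 420 ± 25.5 TPM without NFL and 500.1 ± 29.4 TPM with NFL (SD, n = 3 each), whereas Col2a1 was at 7.72 ± 0.551 and 9.23 ± 0.475 TPM, Sox9 at 4.42 ± 0.581 and 4.66 ± 0.444 TPM, and Acan at 5.11 ± 0.748 and 5.55 ± 0.531 TPM (SD, n = 3 each). Matn1 had at most 1 count in a library and Cnmd at most 4.1. Of the 10 markers of fibroblasts and synovial lining, S100a4 was the highest at a mean of 3651 TPM without NFL, with Thy1 at 2453 ± 46.0 and 2677 ± 56.9 TPM, Col1a1 at 1223 ± 154 and 1308 ± 41.1 TPM and Prg4 at 1140 ± 191 and 1060.1 ± 90.8 TPM (SD, n = 3 each). The others ran from a mean of 34.7 TPM (Twist1) to 481 TPM (Pdpn) without NFL, below and above Col11a1. Col2a1, Acan and Sox9 were below each of the 10 in both groups.

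The 16 chondrocyte markers summed to 458 to 510 TPM in the TNF-α libraries and to 538 to 592 TPM in the TNF-α+NFL libraries, without overlap, but nearly all of it was Col11a1, and the other 15 summed to 52.6 to 61.3 and 54.3 to 60.5 TPM, which overlap. Of the 13 tested, 0 were called, and 2 were higher without adjustment, beside 11.1% of all tested genes in either direction. The 10 fibroblast markers summed to 9599 to 10020.2 and 9807 to 10055 TPM, and 1 of the 10 was called, Pdpn, lower, beside 0.611% of all tested genes in either direction. The 8 macrophage markers in the table summed to 105 to 117 TPM in the TNF-α libraries and to 98.2 to 101 TPM in the TNF-α+NFL libraries, nearly all from Cd14 and Cd68, with C1qb at 0 in each library. The macrophage sums of the groups did not overlap, and neither did those of endothelial markers (12.8 to 14.6 and 10.9 to 12.6 TPM, mostly Egfl7, with Kdr at 0) or adipocyte markers (30.3 to 31.1 and 31.9 to 36.05 TPM, nearly all Fabp4). The genes that made up most of these sums were not called. Their edgeR adjusted p was 0.16 (Cd14), 0.71 (Cd68), 0.31 (Egfl7) and 0.70 (Fabp4). By normalized count Cd68 and Fabp4 overlapped between the groups, whereas Cd14, Egfl7 and 16.8% of all tested genes did not. Blood markers summed to at most 0.96 TPM, with Hba-a1 the highest and Hba2 at 0. In bulk RNA, fewer cells of a type and less RNA per cell cannot be told apart. The part of these cell types, and of the cartilage markers, in the values of Socs3, Il11ra1 and Lifr was not tested.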

How the data were processed

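Single-end reads came from oligo(dT)-selected RNA. The submitters' processing notes name HISAT2 2.0.4, Bowtie2 2.2.5 and RSEM 1.2.12 with the Rnor_6.0 build. For each gene the table holds the estimated count deposited by the authors, without normalization, which was fractional for 27.3% to 27.96% of the genes of a library. The authors also deposited FPKM values, scaled to transcript length and mapped reads, and TPM values, scaled to length and to a common total. A gene that shares reads with a similar copy is uncertain.

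The main test was the two-sided quasi-likelihood test of edgeR 4.0.16 (R 4.3.3) on rounded estimated counts, after filterByExpr and TMM, with robust moderation. Adjusted p-values are Benjamini-Hochberg values over all 13250 genes that were tested. CPM values are TMM-normalized. An adjusted p that DESeq2 did not give was left out of its counts. The SE of a log2 fold change was its size divided by the square root of F. Levels of different genes were compared in deposited TPM only. Alternatives were other filters, DESeq2 1.42.0 size factors and its Wald test, limma 3.58.1 (voom, and log2(FPKM + 1) for genes with a mean FPKM of at least 1), the replicate number as a block, and leaving out each library. On simulated counts for this comparison (13250 genes, 200 changed), the test recovered 34.2% of genes changed by log2 0.3, and 89.0% of those changed by log2 1. The simulation gave each gene the variation of the trend at its level, the same in both groups. In the data Lifr (17.8% against 5.83%), Il6 and Socs3 exceeded their trend, and every other member lay below it. The median ratio of variance to mean count, over the more abundant genes, was 1.81 in the TNF-α group and 1.04 in the TNF-α+NFL group.

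The text names all members and, of each pathway list, every gene past an adjusted p of 0.05 and the 2 with the smallest p, and of the marker lists those at 0 in every library and the highest. All other genes named (the most abundant pathway genes, ligands and receptors that failed the filter, genes called in an alternative only and further markers) were chosen after their values were seen. Members and lists were chosen with earlier results of these data known. Directions follow the deposited labels. Of the 18420 identifiers, 17068 matched the RefSeq table of GRCr8, used for names and promoters only. Listed symbols without a row in the table were not analysed here, and some genes that the rule names are not reported here.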

Additional observations from a re-analysis of the deposited data

How the results depend on the processing

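Against 0 higher and 0 lower members, 1 member (Lifr) was higher without TNF-α replicate 1, and 2 (Socs3 and Il11ra1) were lower at a p without adjustment, and over the fits with 1 library left out the count of higher members ran from 0 to 1. Other filters, DESeq2, limma and the replicate block gave 0 and 0. DESeq2 gave no adjusted p for Il11, Il6r and Lifr, and Il11 was not tested on FPKM.

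Over all genes, against 54 higher and 27 lower, 84 and 48 were called in the table left unfiltered, 95 and 53 with the DESeq2 Wald test, 8 and 6 with limma on log2(FPKM + 1), and 25 and 9 with the replicate block. With 1 library left out they ran from 5 to 460 higher and from 0 to 470 lower, both highest without TNF-α replicate 1 and lowest without TNF-α+NFL replicate 1. Each of the other 4 libraries left out gave 6 to 31 higher and 5 to 10 lower. Of the pathway list genes, 1 was higher and 0 lower. Unfiltered, 2 were lower (Fosl1 and Timp1), as were 2 with the DESeq2 Wald test (Ccnd1 and Timp1), and 0 higher on FPKM. With 1 library left out they ran from 0 to 2 higher and from 0 to 5 lower. The causes were not tested.

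No member passed an adjusted p of 0.05 in any alternative except Lifr. The direction turned, without passing the threshold, for Il6 (-0.0059), Il6st (0.010) and Osmr (0.036) when TNF-α replicate 1 was left out, for Osmr (0.025) without TNF-α+NFL replicate 3, and for Lifr without TNF-α replicate 2 (-0.054) or 3 (-0.049). With 1 library left out, the log2 fold change ran up to 0.18 for Il6 and 0.31 for Lifr, and down to -0.072 for Il6st and -0.028 for Osmr. The median of the members ran from -0.057 (TNF-α replicate 2 left out) to 0.0021 (TNF-α replicate 1 left out).

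The deviations of same-numbered libraries correlated at 0.030, -0.024 and 0.1, which cannot show whether replicate numbers pair the samples. Under the replicate block the log2 fold change of Socs3 was -0.26 (edgeR adjusted p = 0.065), and no member changed its side of the threshold. The order of the members was the same in FPKM.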
